A study of Homo sapiens with 6 samples.

Results

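The NRF2 antioxidant response genes were compared between wild-type (WT) H7 human embryonic stem cells (hESCs), an established cell line, and S6K1-/- hESCs derived from it. The group holds the 10 genes NFE2L2, KEAP1, NQO1, HMOX1, GCLC, GCLM, TXNRD1, SRXN1, SOD2 and GPX4, which were taken by gene symbol from a count table of 61155 symbols. All 10 were among the 19521 genes that passed the filter on low counts. Bulk RNA sequencing gave 3 libraries of WT and 3 of S6K1-/- hESCs, both undifferentiated and grown without feeder cells on Matrigel in TeSR-E8 medium. S6K1-/- cells were made by CRISPR/Cas9 cutting of exons 9 and 11 of RPS6KB1, the gene of the kinase S6K1. All of them come from a single clone (clone #1), so effects of the genotype and of the clone cannot be told apart. The labels name a knockdown and week 5, whereas the protocols describe a clonally expanded knockout and undifferentiated cells. Neither gives separate cultures or a batch, so that p-values measure the spread between these libraries, which may be technical.

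NRF2, encoded by NFE2L2, is a transcription factor that responds to oxidants and electrophiles. KEAP1 binds NRF2 in unstressed cells and directs it to ubiquitination and degradation through the CUL3 ligase, and modified KEAP1 no longer does so. NRF2 then accumulates, pairs with small MAF proteins and binds antioxidant response elements near genes for glutathione synthesis, thioredoxin reduction, quinone detoxification and heme breakdown. Since this control acts mostly on NRF2 protein, transcripts of the target genes are commonly read as a measure of the pathway, and NFE2L2 RNA alone is not. Of the 10 genes, SOD2 and GPX4 are antioxidant enzymes that also answer to other regulators.

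The core of the antioxidant response element, TGACNNNGC, was searched on both strands around the transcription starts that RefSeq gives on GRCh38. The set of promoters used here held starts for 9 of the 10 genes and had no entry for HMOX1, which was therefore not searched. From 250 bases before to 50 after a start, 3 of these 9 genes held the core, GCLM, TXNRD1 and KEAP1, and 13.3% of 35116 promoters of this length did. From 1000 bases before to 50 after, 7 of the 9 held it, against 33.7% of promoters. The genes have from 1 to 4 starts each, so the share of genes and the share of promoters are not the same measure. NQO1, the gene that changed between the groups, had 1 match in the longer window, with its first base 455 bases before the start. The matches of GCLM, TXNRD1 and KEAP1 in the shorter window are shown with it for comparison. Each is printed 5′ to 3′ on the strand that carries it, with the core in capitals and 10 bases on each side. A match to these letters is a description of the sequence, and binding was not measured.
NQO1, chr16:69726997-69727025, minus strand: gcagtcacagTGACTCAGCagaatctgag
GCLM, chr1:93909446-93909474, plus strand: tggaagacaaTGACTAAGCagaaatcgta
TXNRD1, chr12:104215670-104215698, plus strand: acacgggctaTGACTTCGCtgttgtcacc
TXNRD1, chr12:104215761-104215789, minus strand: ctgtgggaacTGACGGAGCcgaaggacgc
TXNRD1, chr12:104286920-104286948, minus strand: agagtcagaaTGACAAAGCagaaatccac
KEAP1, chr19:10502807-10502835, minus strand: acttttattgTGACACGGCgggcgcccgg
KEAP1, chr19:10502784-10502812, plus strand: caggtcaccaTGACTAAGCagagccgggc
The cores of GCLM and of the KEAP1 match on the plus strand have the same 9 bases.

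Library totals ranged from 21896698 to 24473013 counts. RPS6KB1 had 831, 791 and 777 counts in WT replicates 1, 2 and 3 and 464, 464 and 438 in S6K1-/- replicates 1, 2 and 3. Its log2 fold change was -0.75 (SE 0.057, adjusted p = 2.52e-07, edgeR quasi-likelihood F test), lower in every S6K1-/- library. The pluripotent cell markers POU5F1, NANOG, SOX2, LIN28A and 6 others summed to 6649 to 6835 CPM (counts relative to the TMM-scaled library size) in WT and 6227 to 6306 CPM in S6K1-/- hESCs, and none of the 10 was at 0. The 10 mesenchyme markers summed to 627 to 645 CPM and 541 to 561 CPM, with DCN at 0 in all 6 libraries and 5 of the 10 under a mean of 1 CPM. The 8 endoderm markers summed to 16.5 to 18.5 and 11.7 to 13.4 CPM, the 8 neuroectoderm markers to 466.5 to 483 and 445 to 459 CPM, and the 9 amnion and trophoblast markers, with HAND1 at 0 in all 6 libraries, to 59.7 to 65.2 and 71.1 to 74.3 CPM. Single genes carried some of these sums. Of the pluripotent markers only DNMT3B passed 0.001, and it fell from a mean of 1412 to 1106 CPM (adjusted p = 4.88e-05, edgeR), whereas UTF1 had a log2 fold change of 0.41 (adjusted p = 0.00170, edgeR). At an adjusted p under 0.05, 3 of these 10 markers were lower and 1 was higher (8.31% and 5.47% of all genes tested were). THY1, with a mean of 488 CPM in WT and 480 CPM in S6K1-/- hESCs, made up most of the mesenchyme sum, in which COL1A1 fell by 1.79, PDGFRB by 1.34 and COL1A2 by 0.50 on the log2 scale (adjusted p = 6.95e-12, 5.41e-06 and 2.50e-06, edgeR). Of the endoderm markers CER1 fell by 2.29 (adjusted p = 1.31e-05, edgeR), FOXA2 had a log2 fold change of -0.88 (0.00108) and HHEX one of 0.36 (0.0646). NES, with 442 and 424 CPM, made up most of the neuroectoderm sum, in which PAX6 rose by 0.76 and OTX2 and DCX fell by 0.63 and 0.54 on the log2 scale (adjusted p = 2.69e-04, 6.03e-05 and 4.91e-04, edgeR). TFAP2C, which rose by 0.38 (adjusted p = 6.39e-05, edgeR), carried the amnion and trophoblast sum, whereas KRT7 had a log2 fold change of -0.82 (adjusted p = 0.00103, edgeR). The part of these differences in the results that follow was not tested.

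Of the 10 genes, NQO1 was higher in S6K1-/- hESCs and no gene was lower at an adjusted p under 0.001, the threshold used throughout. Across all genes tested, 1.42% were higher and 2.54% were lower at this threshold. At an adjusted p under 0.05, NQO1 was still the only one of the 10 genes past the threshold, where 5.47% of all genes were higher and 8.31% lower. An unadjusted p under 0.05 was reached by 2 of the 10, NQO1 (higher) and KEAP1 (negative, not past the adjusted threshold), against 26.4% of all genes tested. DESeq2's Wald test also called 1 higher and 0 lower. The median log2 fold change over the 10 genes was -0.004, and that over all genes tested was -0.002. Of the 10 genes, 5 had a positive and 5 a negative log2 fold change, and 8 lay within 0.2 of zero on the log2 scale, as did 68.9% of all genes tested. In CPM, WT and S6K1-/- libraries were fully separate for 3 of the 10 (NQO1 higher, KEAP1 and HMOX1 lower), and were so for 30.7% of all genes tested. In bulk RNA, fewer cells of a type and less RNA per cell cannot be told apart.

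**Figure D1:**
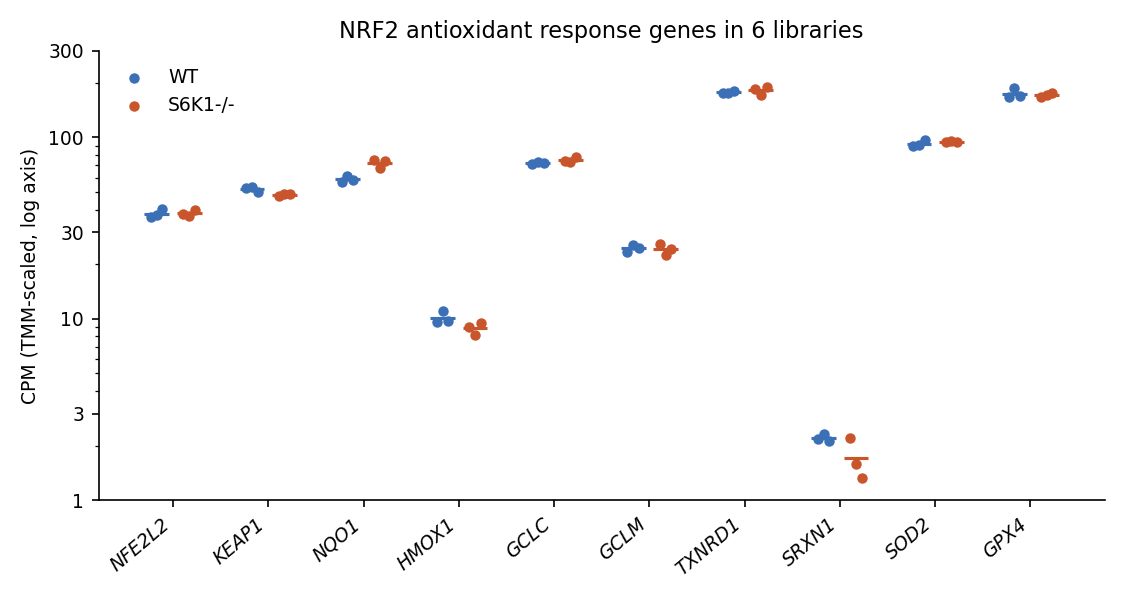
TMM-scaled CPM (log axis) of the 10 genes, with 1 point per library, WT in blue and S6K1-/- in orange, and a short line at each group's mean. For NQO1 the 3 S6K1-/- libraries lie above the 3 WT libraries, and for most other genes the groups intermingle or lie side by side.

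NQO1 encodes a quinone reductase that uses NADH or NADPH to reduce quinones in a single hydride step, and it is among the genes used most to read NRF2 activity. It lies on the minus strand of chromosome 16, from 69706996 to 69726668 in GENCODE 44 on GRCh38. NQO1 had 1384, 1512 and 1352 counts in WT and 1760, 1628 and 1615 in S6K1-/- hESCs. Every S6K1-/- library was above every WT library, and in CPM the groups came closest between S6K1-/- replicate 2 (68.0) and WT replicate 2 (61.5). After scaling, NQO1 averaged 58.9 ± 2.39 CPM in WT and 72.4 ± 3.82 CPM in S6K1-/- hESCs (SD, n = 3 each). It rose by 0.30 on the log2 scale (SE 0.049, Benjamini-Hochberg adjusted p = 6.80e-04, edgeR quasi-likelihood F test). This is 22.9% higher, with a 95% interval from 14.3% to 32.2%. The direction was the same in each of the 12 alternative fits, with log2 fold changes from 0.27 to 0.34 and adjusted p from 1.98e-07 to 0.00633 (edgeR or DESeq2). The call at 0.001 was lost without WT replicates 1 and 3 (adjusted p = 0.00410 and 0.00417 from edgeR) and without S6K1-/- replicates 1 and 3 (0.00633 and 0.00444 from edgeR), and without TMM scaling (0.00118). The 20 tested genes nearest to NQO1, 10 on each side, had a median log2 fold change of 0.01, from -0.12 to 0.22, and none of them was past the threshold. An antisense gene overlaps 19.4% of the exonic bases of NQO1 in GENCODE 44, and although the library kit keeps the strand, the strand setting of the counting is not given in the sources used here.

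NFE2L2 and KEAP1, the factor and its inhibitor, did not pass the test. NFE2L2 had 883, 918 and 938 counts in WT and 889, 886 and 871 in S6K1-/- hESCs, or 38.0 ± 2.13 CPM and 38.3 ± 1.55 CPM (SD, n = 3 each). The groups overlapped, and the log2 fold change was 0.01 with a 95% interval from -0.11 to 0.13 (adjusted p = 0.929, edgeR quasi-likelihood F test). Antisense genes overlap 24.8% of its exonic bases, and a gene on the same strand overlaps 13.6%. KEAP1 had 1274, 1304 and 1160 counts in WT and 1120, 1165 and 1060 in S6K1-/- hESCs. Once scaled, each S6K1-/- library was below each WT library, at 48.4 ± 0.565 CPM against 51.8 ± 1.63 CPM (SD, n = 3 each). The log2 fold change of KEAP1 was -0.10 with a 95% interval from -0.20 to -0.002, and it failed the correction over all genes (adjusted p = 0.179, edgeR quasi-likelihood F test). The ratio of NFE2L2 to KEAP1 counts within a library, which does not depend on the scaling, was 0.693, 0.704 and 0.809 in WT and 0.794, 0.761 and 0.822 in S6K1-/- hESCs. The groups overlapped because of WT replicate 3, and the difference in the mean log2 ratio was 0.11 (two-sided exact permutation test, p = 0.30, where the smallest p that 3 against 3 libraries allow is 0.10). This difference was 0.18 without WT replicate 3 and 0.07 without WT replicate 1.

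**Figure D2:**
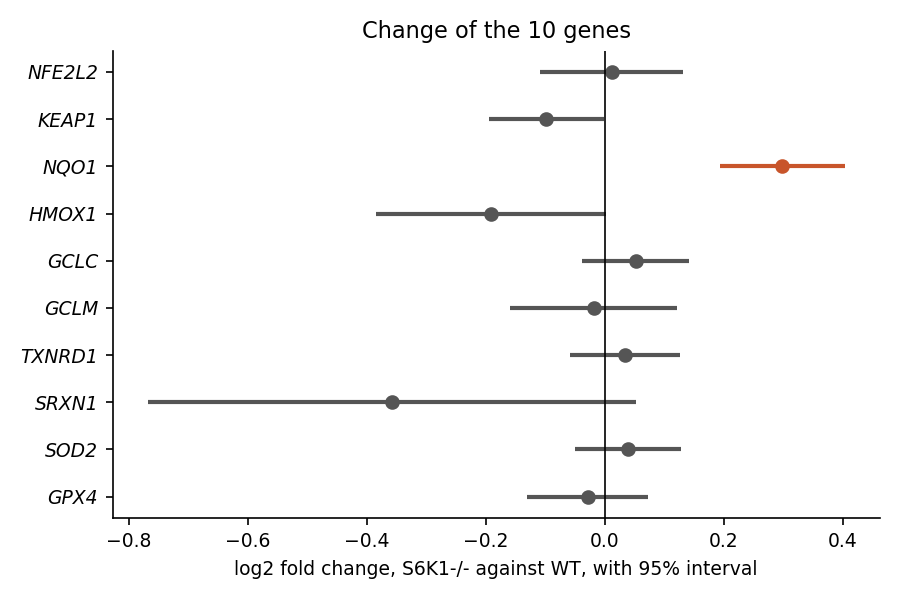
Log2 fold change of S6K1-/- against WT hESCs for the 10 genes, with points for edgeR's estimate and bars for the 95% interval. The interval of NQO1 (orange) runs from 0.19 to 0.40, that of KEAP1 ends just under 0, and those of the other 8 genes include 0, with that of SRXN1 the widest of the 10.

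The genes of glutathione synthesis did not pass the test. GCLC and GCLM encode the catalytic and the modifier subunit of glutamate-cysteine ligase, which makes the first and limiting step of glutathione synthesis. GCLC had 1739, 1798 and 1678 counts in WT and 1736, 1740 and 1701 in S6K1-/- hESCs, with groups that overlapped in CPM and a log2 fold change of 0.05 (95% interval -0.04 to 0.14, adjusted p = 0.491, edgeR quasi-likelihood F test). GCLM had 570, 630 and 572 counts in WT and 605, 541 and 530 in S6K1-/- hESCs. Its S6K1-/- libraries, from 22.6 to 25.8 CPM, spanned those of WT, from 23.4 to 25.6 CPM, and its log2 fold change was -0.02 (95% interval -0.16 to 0.12, adjusted p = 0.892 from edgeR). The catalytic subunit had 3.05, 2.85 and 2.93 times the counts of the modifier subunit in WT and 2.87, 3.22 and 3.21 times in S6K1-/- hESCs. The groups overlapped in this ratio, and the difference in the mean log2 ratio was 0.07 (two-sided exact permutation test, p = 0.30). It was 0.13 without S6K1-/- replicate 1, and 0.04 without S6K1-/- replicate 2 or 3.

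TXNRD1 and SRXN1 act on the thioredoxin and peroxiredoxin system. TXNRD1, the cytosolic thioredoxin reductase, is a selenoprotein that keeps thioredoxin reduced with NADPH. It had 4268, 4314 and 4204 counts in WT and 4318, 4099 and 4120 in S6K1-/- hESCs, and the S6K1-/- libraries lay on both sides of those of WT in CPM. The log2 fold change of TXNRD1 was 0.03 (95% interval -0.06 to 0.13, adjusted p = 0.682, edgeR quasi-likelihood F test). SRXN1 encodes sulfiredoxin, which restores overoxidized peroxiredoxins. It had 53, 57 and 49 counts in WT and 52, 38 and 29 in S6K1-/- hESCs, so that S6K1-/- replicate 1 was within the WT range and the other two were below it. The log2 fold change of SRXN1 was -0.36 with a 95% interval from -0.77 to 0.05 (adjusted p = 0.259 from edgeR). It was -0.59 without S6K1-/- replicate 1 and -0.21 without S6K1-/- replicate 3, with adjusted p between 0.0845 and 0.570 across the 12 alternatives (edgeR or DESeq2). At this depth a fall of 41.3% and a rise of 3.69% both lie within the interval. In GENCODE 44 a second gene on the same strand covers 90.7% of the exonic bases of SRXN1, so reads may have been shared or dropped between both, and the level of SRXN1 is uncertain.

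HMOX1 encodes heme oxygenase 1, the inducible enzyme that breaks down heme. It had 234, 270 and 226 counts in WT and 212, 194 and 206 in S6K1-/- hESCs. Each S6K1-/- library was below each WT library, at 8.87 ± 0.695 CPM against 10.1 ± 0.760 CPM (SD, n = 3 each), with 9.46 CPM in the highest S6K1-/- library and 9.61 CPM in the lowest WT library. The log2 fold change of HMOX1 was -0.19 with a 95% interval from -0.39 to 0.002, and it did not pass the test (adjusted p = 0.196, edgeR quasi-likelihood F test). It was -0.13 without WT replicate 2, where the adjusted p was 0.481 (edgeR). Over the 12 alternatives the adjusted p was 0.149 to 0.482 (edgeR or DESeq2). The sign of HMOX1 was opposite to that of NQO1. HMOX2, the paralog that is usually constitutive, was listed with 0 or 1 counts in every library, although it is known from most tissues, and the cause was not tested.

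SOD2, the manganese superoxide dismutase of mitochondria, had 2170, 2242 and 2240 counts in WT and 2203, 2292 and 2060 in S6K1-/- hESCs. Its S6K1-/- libraries, from 93.8 to 95.7 CPM, lay within the range of WT, from 89.1 to 96.4 CPM. The log2 fold change of SOD2 was 0.04 (95% interval -0.05 to 0.13, adjusted p = 0.615, edgeR quasi-likelihood F test). GPX4, the selenoprotein that reduces lipid peroxides in membranes and restrains ferroptosis, had 4068, 4610 and 3911 counts in WT and 3893, 4084 and 3836 in S6K1-/- hESCs. WT replicate 2 was the highest of the 6 libraries for GPX4, and the groups overlapped. The log2 fold change of GPX4 was -0.03 (95% interval -0.13 to 0.07, adjusted p = 0.760 from edgeR). The intervals of GCLC, SOD2, TXNRD1, GPX4, NFE2L2 and GCLM all lay between -0.16 and 0.14 on the log2 scale, which is between a fall of 10.4% and a rise of 10.3%.

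**Figure D3:**
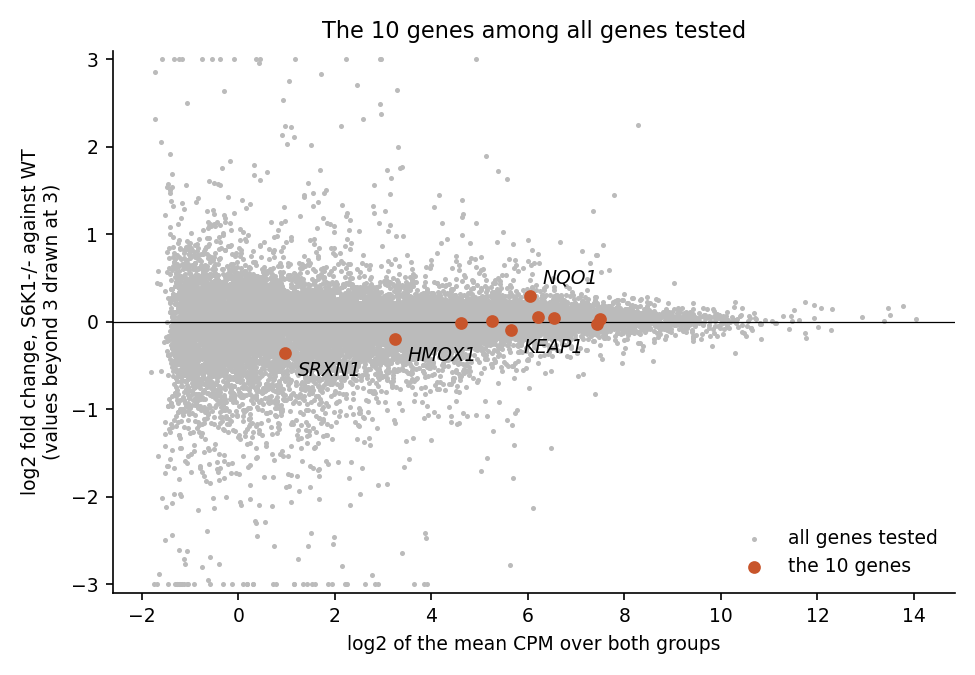
Log2 fold change of S6K1-/- against WT hESCs by log2 of the mean CPM, with all 19521 genes tested in grey (values beyond 3 drawn at 3) and the 10 genes in orange. NQO1 lies above 0, HMOX1 and KEAP1 a little below 0, and SRXN1, at the lowest level of the 10, where the cloud is wide.

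To compare levels between the genes, CPM were divided by the union of exons in GENCODE 44. On this scale (CPM per kilobase, mean of the 3 WT libraries) GPX4 was the highest at 94.8 ± 6.22, followed by TXNRD1 at 26.4 ± 0.481, NQO1 at 19.8 ± 0.806, KEAP1 at 14.5 ± 0.455 and GCLC at 8.39 ± 0.0990. SOD2 (5.09 ± 0.207), GCLM (4.53 ± 0.204), HMOX1 (4.38 ± 0.330), NFE2L2 (2.54 ± 0.142) and SRXN1 (0.871 ± 0.0424) were lower. Of these neighbours, GCLM and HMOX1 had WT libraries that overlapped, and each other gene was separate from the next. The order of the 10 genes was the same in S6K1-/- hESCs. It depends on the length used. With the length of 1 canonical transcript, NFE2L2, whose union of exons is 14975 bases and whose canonical transcript is 2446 bases, moved from rank 9 to rank 6 at 15.5 ± 0.872 CPM per kilobase. In WT the first 5 ranks and the last were the same with both lengths. For SOD2 both lengths are long, at 18144 and 14167 bases, and which of its transcripts were counted was not resolved. Its level with a shorter transcript was not computed. In S6K1-/- hESCs the canonical length put GCLC (19.8 ± 0.757 CPM per kilobase) above KEAP1 (18.9 ± 0.221), which had the reverse order with the union of exons.

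The partners and regulators of NRF2 gave no call at 0.001. Of 20 such genes, including small MAF, BACH and CUL3 ligase genes, all were tested, and 3 (15%) had an unadjusted p under 0.05, against 26.4% of all genes tested. Their median log2 fold change was 0.04, with 8 below 0. BACH2, a repressor that competes for MAF-bound elements, had 301, 292 and 322 counts in WT and 218, 205 and 206 in S6K1-/- hESCs, with groups that did not overlap. Its log2 fold change was -0.48 (SE 0.085, adjusted p = 0.00122, edgeR quasi-likelihood F test). FBXW11, a subunit of an SCF ubiquitin ligase that can act on NRF2 after its phosphorylation by GSK3, had 1897, 2038 and 1843 counts in WT and 1551, 1594 and 1528 in S6K1-/- hESCs. Its log2 fold change was -0.24 (SE 0.044, adjusted p = 0.00128 from edgeR), and it was past 0.001 with DESeq2's Wald test (adjusted p = 5.13e-04). Without TMM scaling both BACH2 and FBXW11 were past 0.001 (8.76e-04 and 6.87e-04 from edgeR).

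Of 38 other NRF2 target genes, 36 were tested, of which CBR1 rose and ABCC4 fell at 0.001 (1.42% and 2.54% of all genes tested did). An unadjusted p under 0.05 was reached by 16 (44.4%), against 26.4% of all genes tested. Their median log2 fold change was -0.04, with 20 below 0 and 16 above. CBR1, a carbonyl reductase that uses NADPH, had 3568, 3746 and 3376 counts in WT and 5087, 5336 and 4808 in S6K1-/- hESCs. The groups were far apart, and CBR1 averaged 148 ± 3.76 CPM in WT and 220.1 ± 3.18 CPM in S6K1-/- hESCs (SD, n = 3 each), with a log2 fold change of 0.57 (SE 0.039, adjusted p = 6.21e-08, edgeR quasi-likelihood F test). An antisense gene overlaps 18.9% of its exonic bases, and a gene on the same strand 15.55%. ABCC4, an exporter of organic anions and glutathione conjugates, had 368, 398 and 369 counts in WT and 288, 242 and 227 in S6K1-/- hESCs. It fell by 0.52 on the log2 scale (SE 0.082, adjusted p = 4.18e-04 from edgeR). The call of ABCC4 at 0.001 was kept only without S6K1-/- replicate 1 among the fits that left out 1 library (adjusted p from 1.71e-04 to 0.00502 over these 6 in edgeR, and from 3.76e-08 to 0.00502 over all 12 alternatives). At an adjusted p under 0.05, 3 of the 36 were higher and 5 lower (5.47% and 8.31% of all genes tested were), and those not past 0.001 are named here after their values were seen. They were CBR3 (log2 fold change 0.38) and SLC7A11 (0.21), the cystine transporter subunit, and, with negative values, ME1 (-0.37), AKR1B10 (-1.64), BLVRB (-0.34) and FTH1 (-0.16), the ferritin heavy chain. AKR1B10 had 26, 76 and 29 counts in WT and 12, 21 and 7 in S6K1-/- hESCs, with WT replicate 2 far above the others. Without that library its log2 fold change was -0.996 (adjusted p = 0.0725, edgeR), and it was also not past 0.05 without S6K1-/- replicate 1 (0.0574) or 3 (0.0780). Its adjusted p was 3.43e-09 to 0.0780 in the 11 alternatives that could test it.

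Of 31 other antioxidant and redox genes, some of which (such as GPX2 and PRDX6) are also known as NRF2 targets, 29 were tested, and 2 rose and 2 fell at 0.001, against 1.42% and 2.54% of all genes tested. An unadjusted p under 0.05 was reached by 8 (27.6%, against 26.4%). The median over these 29 was -0.06 on the log2 scale, and 18 had negative values. At an adjusted p under 0.05, 3 were higher and 2 lower (5.47% and 8.31% of all genes tested were). PRDX6, past 0.05 only, had a log2 fold change of 0.18 (adjusted p = 0.00677, edgeR quasi-likelihood F test). It was past 0.001 with DESeq2's Wald test (adjusted p = 1.82e-04). CAT encodes catalase, the peroxisomal enzyme that breaks down hydrogen peroxide, and had 47, 42 and 54 counts in WT and 240, 223 and 224 in S6K1-/- hESCs. Its level was 1.99 ± 0.312 CPM in WT and 9.94 ± 0.545 CPM in S6K1-/- hESCs (SD, n = 3 each), a 5.00-fold rise (log2 fold change 2.32, SE 0.123, adjusted p = 4.10e-09, edgeR quasi-likelihood F test). PRDX4, the peroxiredoxin of the endoplasmic reticulum, had 1625, 1836 and 1627 counts in WT and 2953, 3028 and 3202 in S6K1-/- hESCs, a 1.89-fold rise (log2 fold change 0.92, SE 0.060, adjusted p = 4.70e-08 from edgeR). TXNRD2, the mitochondrial thioredoxin reductase, fell from 101, 129 and 98 counts to 42, 52 and 47, by 1.15 on the log2 scale (SE 0.151, adjusted p = 7.75e-05 from edgeR). For these 3 genes no library of a group came near the other group. GPX3, the secreted glutathione peroxidase, fell from 527, 551 and 493 counts to 399, 356 and 316, by 0.49 on the log2 scale (SE 0.071, adjusted p = 2.05e-04 from edgeR). GPX3 was not past 0.001 without WT replicate 3 (0.00109 from edgeR) and without S6K1-/- replicates 2 and 3 (0.00213 and 0.00290 from edgeR), and its adjusted p was 4.71e-09 to 0.00290 over the 12 alternatives. The cytosolic TXNRD1 and the mitochondrial TXNRD2 thus had log2 fold changes of 0.03 and -1.15, and the difference between them was not tested.

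**Figure D4:**
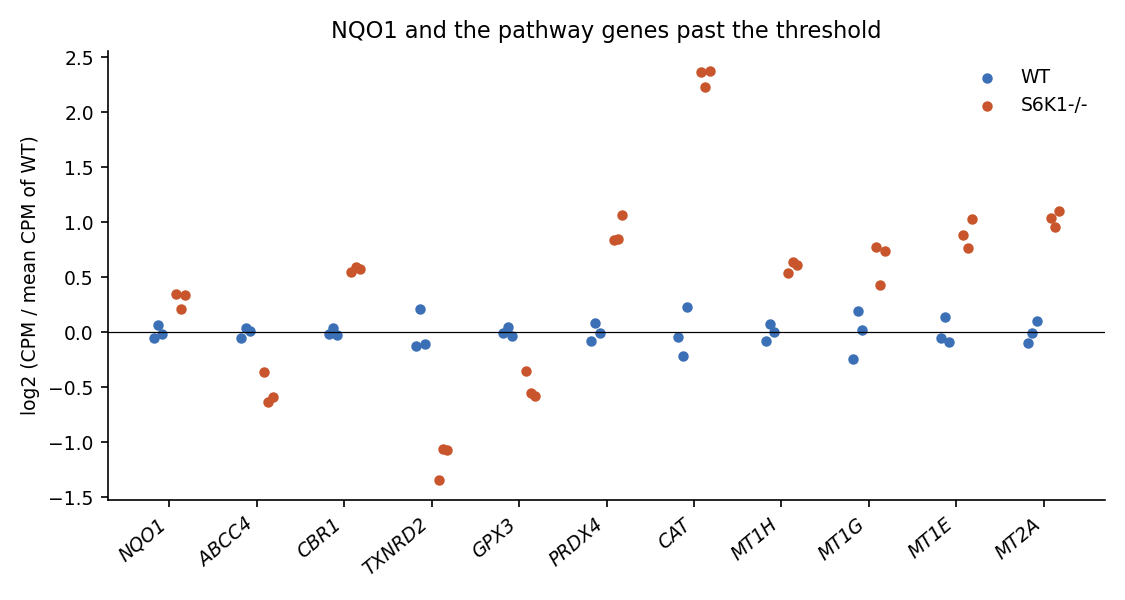
Log2 of CPM relative to the mean of WT, with 1 point per library (WT blue, S6K1-/- orange), for NQO1 and the 10 genes of the NRF2 target, antioxidant enzyme and metallothionein lists past 0.001. The change of NQO1 (log2 fold change 0.30) is the smallest shown, and that of CAT (2.32) the largest.

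The ferroptosis and selenoprotein list of 20 genes, all tested, gave no call at 0.001, with an unadjusted p under 0.05 for 6 (30%, against 26.4% of all genes tested) and a median log2 fold change of -0.02. SEPHS1 had a log2 fold change of -0.19 (adjusted p = 0.00640, edgeR quasi-likelihood F test, 1.45e-04 from DESeq2's Wald test), and TFRC, the transferrin receptor, had -0.22 (adjusted p = 0.0174 from edgeR). All but 1 of the 20 lay within 0.2 of zero on the log2 scale.

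Metallothioneins are small cysteine-rich proteins that bind zinc and copper and are induced by metals and oxidants, mainly through MTF1. Of the 13 genes listed, which include MTF1 and the zinc exporter SLC30A1, 9 were tested, and 4 rose and none fell at 0.001 (1.42% and 2.54% of all genes tested did). An unadjusted p under 0.05 was reached by 6 of the 9 (66.7%, against 26.4% of all genes tested), which include SLC30A1 with a log2 fold change of -0.11. Their median log2 fold change was 0.59, and this rise was known from earlier results of these data when the list was chosen. MT2A had 672, 726 and 738 counts in WT and 1424, 1377 and 1384 in S6K1-/- hESCs, a 2.04-fold rise (log2 fold change 1.03, SE 0.058, adjusted p = 9.08e-09, edgeR quasi-likelihood F test). MT1E rose from 456, 525 and 425 counts to 845, 793 and 866, with a log2 fold change of 0.90 (SE 0.077, adjusted p = 9.91e-07 from edgeR). MT1H rose by 0.59 (adjusted p = 9.13e-06 from edgeR) and MT1G by 0.65 (2.18e-04 from edgeR), and MT1G was not past 0.001 without WT replicate 3 (0.00144) or S6K1-/- replicates 1 and 3 (0.00149 and 0.00237), with 1.91e-35 to 0.00237 over the 12 alternatives. MTF1 had 413, 377 and 386 counts in WT and 425, 413 and 339 in S6K1-/- hESCs, which overlap. Metallothionein genes are close copies of each other on chromosome 16, and reads shared between them were not resolved here. The 20 tested genes nearest to MT2A and those nearest to MT1E had median log2 fold changes of 0.11 and 0.12. Both sets ran from -1.12 to 1.56, and each had 7 genes past 0.001. Those nearest to MT1G and to MT1H each had 4. These sets include other metallothionein genes, and whether the rise was particular to this family was not tested.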

How the data were processed

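For 3 WT and 3 S6K1-/- libraries, the authors prepared total RNA with a stranded mRNA kit and sequenced paired reads of 150 bases. Per the labels and the methods, reads were trimmed with Trim Galore 0.6.5, aligned to GRCh38 with Bowtie2 2.4.5, which does not align across splice junctions, and counted with featureCounts. The authors deposited whole-number counts per gene symbol, without normalization. The annotation release and strand setting are not given in the sources used here. A second deposited table holds the authors' own DESeq2 comparison and was not used.

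From the counts, filterByExpr, TMM scaling and edgeR's quasi-likelihood test (edgeR 4.0.16 in R 4.3.3) were applied to genotype across all genes, with Benjamini-Hochberg adjustment. Standard errors are the log2 fold change over the square root of F. The steps were tested on simulated data. DESeq2 1.42.0, other scalings and filters, a replicate block and each library left out were alternatives. Library totals of 21896698 to 24473013 limit precision for low genes such as SRXN1. Libraries of a group differed by more than counting noise (a chi-square of 2.23 to 4.51 for each degree of freedom).

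The 10 genes and the lists were chosen with earlier results of these data known. Named were the 10 genes, RPS6KB1, every gene of a pathway list past 0.001 (up to 8 a list) and, where fewer than 2 passed, the 2 with the smallest p. MTF1, HMOX2, the single marker genes with values and the genes past 0.05 only are named outside this rule, after their values were seen. Alternatives for the called pathway genes were added after seeing the data. Positions and lengths come from GENCODE 44, and promoters from RefSeq on GRCh38.p14, read to 1000 bases from the genome sequence.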

Additional observations from a re-analysis of the deposited data

How the results depend on the processing

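No gene of the 10 was lower at the threshold under any of the 13 alternatives. The count of higher genes, 1 (NQO1), became 0 without TMM scaling and with the replicate block, and was from 0 to 1 with a library left out. Under the replicate block the log2 fold change of NQO1 was 0.30 (adjusted p = 0.00195 from edgeR) and that of ABCC4 was -0.53 (0.00131), and the block ended no other call among the pathway genes named but brought AKR1B10 past the threshold (8.91e-04), so the 1 lower NRF2 target under the block is AKR1B10 in place of ABCC4. The replicate numbers share no batch in the labels, and correlations of same-numbered libraries were 0.046, -0.010 and 0.033. Signs turned for genes near zero: NFE2L2 had -0.01 without TMM scaling, and with a library left out it ran from -0.0134 to 0.0632, GCLM from -0.065 to 0.031 and GPX4 from -0.0504 to 0.0273. GCLC ran from 0.03 to 0.07, TXNRD1 from 0.01 to 0.08 and SOD2 from 0.02 to 0.08.

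Over all genes, 496 lower and 278 higher genes became 982 and 591 without the filter on low counts and 1622 and 1067 at 0.05, and ran from 313 to 445 and from 175 to 235 with a library left out. Lower NRF2 partners, 0 at the threshold, were 2 without TMM, 1 with DESeq2, 2 without the filter, 2 at 0.05 and 0 to 1 with a library left out. Other NRF2 targets, 1 lower and 1 higher, became 3 and 2 without the filter and 5 and 3 at 0.05, with 0 to 1 lower with a library left out. Lower antioxidant enzymes ran from 1 to 2, and higher ones from 2 to 3. Ferroptosis and selenoprotein genes, 0 in both directions, had 1 lower with DESeq2, 2 without the filter and 2 at 0.05, with 1 higher at 0.05. The median over the 10 genes ran from -0.03 to 0.03.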

Other observations

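The 2 carbonyl reductase genes CBR1 and CBR3 lie near each other on the plus strand of chromosome 21, from 36069941 to 36073166 and from 36135079 to 36146562 in GENCODE 44. Both had higher counts in every S6K1-/- library, with 233, 231 and 225 counts of CBR3 in WT and 300, 289 and 269 in S6K1-/- hESCs (adjusted p = 0.00297, edgeR quasi-likelihood F test). The 20 tested genes nearest to CBR1 had a median log2 fold change of -0.07, and 1 of them was past 0.001. Of all genes tested, 1.42% were higher and 2.54% lower at 0.001. An antisense gene covers 71.1% of the exonic bases of CBR3.

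The 20 tested genes nearest to CAT had a median log2 fold change of -0.04, from -1.79 to 0.15, with 2 past 0.001. Those nearest to PRDX4, on chromosome X, had a median of 0.10, from -0.90 to 0.89, with 6 past 0.001. Across all genes tested, 1.42% were higher and 2.54% were lower at this threshold. Whether the changes of CAT and PRDX4 belong to wider changes around them was not tested.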
